A study of Mus musculus with 24 samples.

Results

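The effect of chronic mild stress (CMS) in the amygdala was set against the effect of the same treatment in the cerebral cortex, gene by gene, to find the genes whose CMS effect differed between these areas and those that moved in opposite directions. The 12 arrays labelled amygdala or cerebral cortex were taken out of the 24 arrays of the series, whose other arrays come from the hippocampus and the prefrontal cortex. They form 4 groups of 3 arrays each, the amygdala of CMS mice, the amygdala of control mice, the cerebral cortex of CMS mice and the cerebral cortex of control mice. All mice were wild-type C57BL/6 males, taken as 6 to 8 weeks old at purchase, and were older when tissue was collected. The upper age in the sample labels rose from sample to sample. This rise was taken as a filling error and was not used. The CMS mice met unpredictable stressors such as a tilted cage, wet bedding or restraint on 6 days per week for 4 weeks, and control mice were kept in standard housing. The design text describes RNA from brain parts of independent mice and the methods describe pooled RNA, so the p-values measure the spread between these arrays, which may be technical. RNA was hybridised to Affymetrix arrays that cover the mouse genome, on which a gene is read by 1 or more probe sets. The values are on a log2 scale, centred so that 0 is the median of a probe set over all 24 arrays, so a value is a level relative to that median and not an amount of RNA.

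The amygdala, a group of nuclei deep in the temporal lobe, handles fear and emotional learning, while the cerebral cortex serves perception and cognition. Both hold excitatory and inhibitory neurons, astrocytes, oligodendrocytes and vessels. Their neighbours differ. The amygdala borders the striatum and the hypothalamus, and the cortical mantle overlies the striatum and the ventricles, in which the choroid plexus makes cerebrospinal fluid. Glucocorticoids released under stress act through the receptor encoded by Nr3c1, and neuronal activity induces immediate early genes such as Fos and Egr2.

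In each area the CMS effect was the mean of the CMS arrays minus the mean of the control arrays. The difference between the areas was the amygdala effect minus the cortex effect, so that a positive difference means a larger rise or a smaller fall in the amygdala. Of 45037 probe sets tested in 1 limma fit of the 12 arrays, 1474 (3.27%) were called different. A call needed a log2 difference over 1 in size together with an adjusted p (Benjamini-Hochberg) under 0.05. In 408 of the 1474 (0.906% of all tested) the amygdala effect was higher than the cortex effect and in 1066 (2.37%) it was lower. By the same thresholds 617 probe sets (1.37%) changed in the amygdala, of which 219 (0.486%) rose and 398 (0.884%) fell, against 589 (1.31%) in the cerebral cortex, of which 464 (1.03%) rose and 125 (0.278%) fell. These splits moved with the way of calling. At an adjusted p alone, 7271 probe sets (16.1%) were higher and 4398 (9.77%) lower, and with genes in place of probe sets 39 genes rose and 32 fell in the cerebral cortex. Probe sets with 1 gene symbol read 18193 genes, of which 195 (1.07%) had a probe set called higher and 839 (4.61%) a probe set called lower. The effect was negative in the amygdala and positive in the cerebral cortex in 907 of the 1474, the reverse in 337, positive in both in 143 and negative in both in 87. The median difference over all probe sets was 0.0589, with a median effect of 0.0268 in the amygdala and -0.0328 in the cerebral cortex. Across all 45037 probe sets, which share their arrays and are not independent, the effects of the areas had a Pearson correlation of 0.0525.

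**Figure D1:**
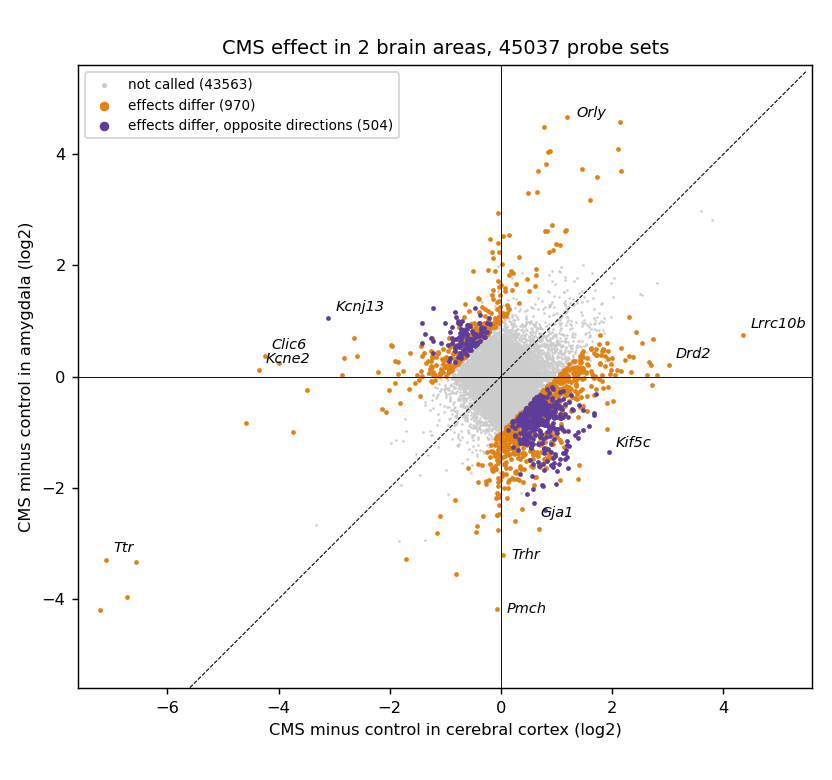
CMS minus control in the amygdala (vertical axis, log2) against CMS minus control in the cerebral cortex (horizontal axis, log2) for 45037 probe sets. On the dashed line the effects are equal, orange and purple points were called different, and the 504 purple points moved in opposite directions, 389 of them at the lower right.

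The area labels were checked in the control arrays. Of 33 probe sets for genes known to mark the amygdala, 16 were higher in the control amygdala than in the control cerebral cortex and 0 were higher in the control cerebral cortex, where 2.23% and 2.22% of all probe sets were called in these directions. Of 71 probe sets for cortical layer genes, 15 were higher in the control amygdala and 24 in the control cerebral cortex. For genes of striatal projection neurons, 39 of 57 probe sets were higher in the control amygdala, and 19 of 55 for choroid plexus genes were higher in the control cerebral cortex. The control cerebral cortex held the array that stood farthest from its group. The lowest correlation between arrays was 0.69 in this group and 0.776 or more in the other groups, and replicate 3 had the lowest array weight. Without it, 1436 probe sets were called different, 475 higher and 961 lower, and 492 moved in opposite directions.

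Genes of the choroid plexus gave the 6 largest positive differences. Of 55 probe sets for 29 such genes, 25 (45.5%) were called higher and 0 lower, where 0.906% of all probe sets were called higher. Their median difference was 0.92, with a median effect of 0.04 in the amygdala and -0.70 in the cerebral cortex. The 25 read 18 of the 29 genes, and at an adjusted p alone 32 probe sets fell in the cerebral cortex and 0 rose.

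Kcne2, a potassium channel subunit of choroid plexus epithelium, read -0.08, -0.09 and -0.13 in the CMS amygdala, against -0.13, -0.26 and -0.25 in the control amygdala. In the cerebral cortex it read -0.17, -0.18 and -0.30 in CMS arrays, against 4.24, 4.19 and 4.00 in control arrays. The 3 cortex control arrays alone were high. The amygdala effect was 0.11 (adjusted p = 0.256), the cortex effect -4.36, and the difference 4.47 ± 0.09 (SE, limma adjusted p = 4.69e-08).

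The chloride channel gene Clic6 read 0.35, 0.40 and 0.53 in the CMS amygdala and 0.03, 0.10 and 0.02 in the control amygdala. Its cortex values were -4.38, -4.14 and -4.70 with CMS and -0.08, -0.02 and -0.36 in controls, so CMS arrays of the cerebral cortex stood below the other 9 arrays. The difference was 4.63 ± 0.19 (SE, adjusted p = 2.23e-06). The folate receptor gene Folr1, which carries folate into cerebrospinal fluid, had a difference of 4.23 ± 0.25 (SE, adjusted p = 1.06e-05), again with a fall in the cerebral cortex (-4.00) and an amygdala effect of 0.23 (adjusted p = 0.363). Kl, which encodes the anti-ageing hormone Klotho, fell in both areas, by 0.84 in the amygdala and by 4.58 in the cerebral cortex, at 1 of its 2 probe sets.

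Transthyretin, Ttr, carries thyroxine and retinol in cerebrospinal fluid and is the most studied product of this epithelium. At the probe set with the largest difference, it read -4.86, -5.13 and -4.80 in the CMS amygdala, against -1.69, -1.62 and -1.60 in the control amygdala. In the cerebral cortex it read -3.72, -3.77 and -3.58 in CMS arrays, against 3.45, 3.31 and 3.49 in control arrays. CMS and control arrays did not overlap in either area, and the fall was 3.29 in the amygdala and 7.11 in the cerebral cortex, a difference of 3.81 ± 0.13 (SE, adjusted p = 9.57e-07). All 4 Ttr probe sets were called, with differences between 2.77 and 3.81.

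Kcnj13, an inwardly rectifying potassium channel of the same epithelium, was the choroid plexus gene with the largest opposite movement. It read 0.35, 0.02 and 0.02 in the CMS amygdala, against -0.95, -0.49 and -1.31 in the control amygdala, and -1.35, -0.73 and -1.21 in the CMS cerebral cortex, against 2.07, 1.97 and 1.97 in the control cerebral cortex. The arrays of CMS and control mice did not overlap in either area. It rose by 1.05 in the amygdala (adjusted p = 0.00896) and fell by 3.10 in the cerebral cortex (adjusted p = 3.11e-05), a difference of 4.15 ± 0.30 (SE, adjusted p = 2.95e-05). Ecrg4, Calml4 and F5 were also among the largest, with differences of 3.33, 3.25 and 2.96. Of the 19 called probe sets that fell more than 4-fold in the cerebral cortex, 16 belonged to this list. In bulk tissue, fewer cells of a type and less RNA per cell cannot be told apart.

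**Figure D2:**
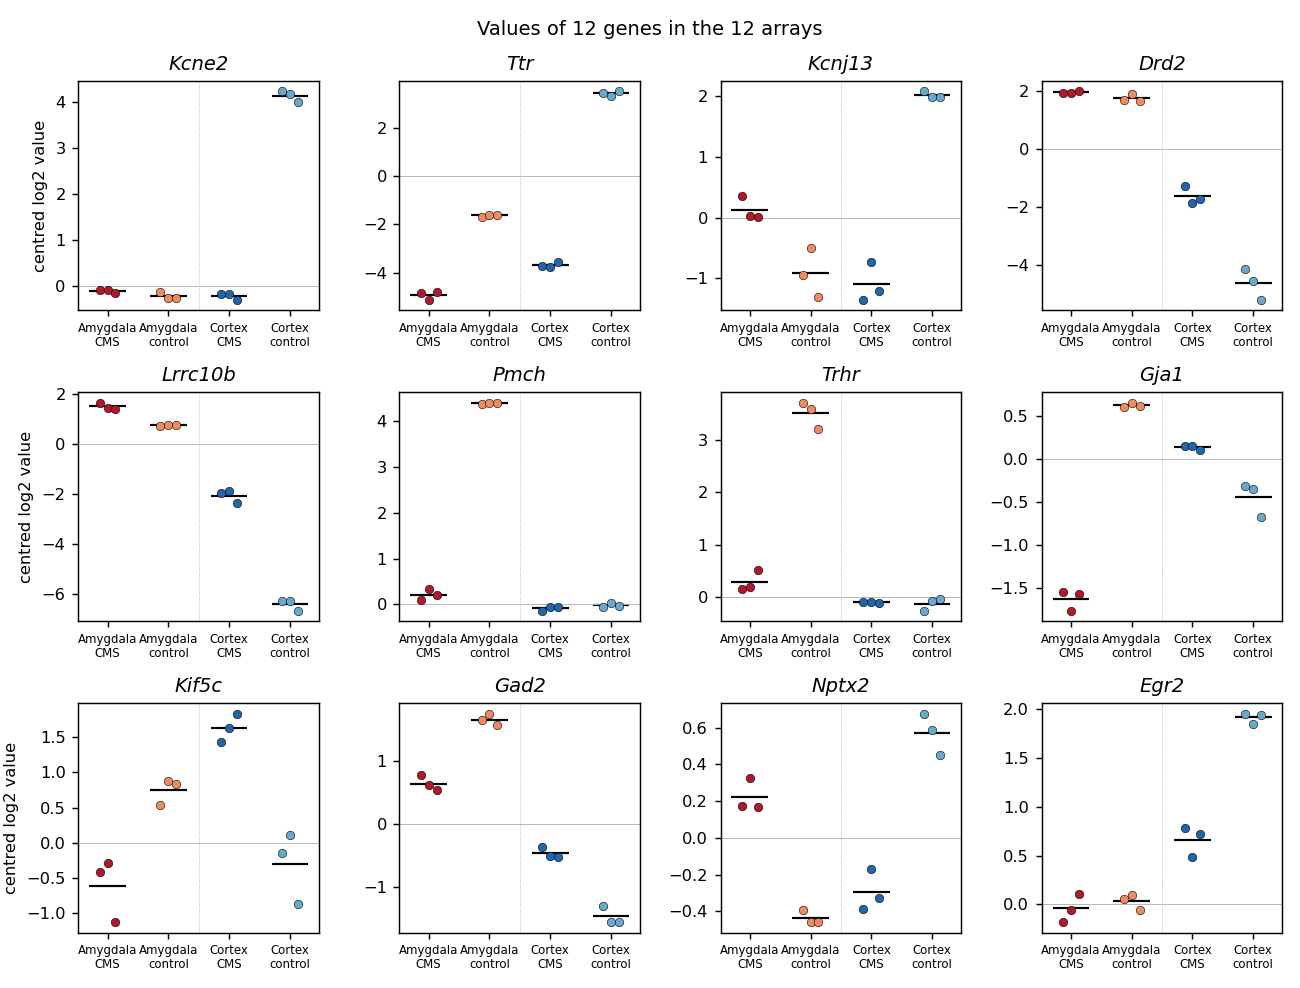
Centred log2 value of 12 genes (vertical axis) in each of the 12 arrays, by group, with a bar at the group mean of 3 arrays. Kcne2, Ttr and Kcnj13 are highest in the control cerebral cortex, Pmch and Trhr in the control amygdala.

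Several genes of striatal projection neurons rose further in the cerebral cortex than in the amygdala. Of 57 probe sets for 28 genes, 13 (22.8%) were called lower and 1 higher, where 2.37% of all probe sets were called lower. The median difference was -0.35, with median effects of 0.32 in the amygdala and 0.44 in the cerebral cortex, so both medians were positive. At an adjusted p under 0.05, 28 probe sets rose and 0 fell in the amygdala, against 31 that rose and 1 that fell in the cerebral cortex. A rise past 2-fold was found for 2 probe sets in the amygdala and 21 in the cerebral cortex.

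The dopamine receptor gene Drd2 read 1.93, 1.94 and 1.99 in the CMS amygdala, against 1.69, 1.91 and 1.66 in the control amygdala. Its cortex values were -1.28, -1.85 and -1.72 with CMS, against -4.15, -4.56 and -5.20 in controls. Both cortex groups lay below all amygdala arrays, and control cortex arrays were the lowest. The amygdala effect was 0.20 (adjusted p = 0.566), the cortex effect 3.02 and the difference -2.82 ± 0.34 (SE, adjusted p = 0.000518).

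Lrrc10b, a leucine-rich repeat gene whose function is little known, read 1.66, 1.44 and 1.42 in the CMS amygdala, against 0.73, 0.77 and 0.77 in the control amygdala. Its cortex values were -1.95, -1.89 and -2.35 with CMS, against -6.28, -6.27 and -6.70 in controls. It rose without overlap of arrays in both areas, by 0.75 in the amygdala and by 4.35 in the cerebral cortex, a difference of -3.60 ± 0.20 (SE, adjusted p = 9.71e-06). The phosphodiesterase Pde10a was called at 3 of 5 probe sets, with a difference of -2.87 at the largest, while a probe set not called had 1.48 (adjusted p = 0.0593). The retinoid receptor Rxrg had a difference of -2.40, the tryptophan-degrading enzyme Ido1 had -2.06, and Penk, the enkephalin precursor, had -1.22. Foxp1, a transcription factor, was the member called higher, at 1 of its 8 probe sets. The call for Penk was lost under quantile normalization, and 8 of the 25 called probe sets that rose more than 4-fold in the cerebral cortex were in this list.

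In all, 34 called probe sets fell more than 4-fold in the amygdala. At an adjusted p under 0.05, 8 of the 34 also fell in the cerebral cortex, among them probe sets of Ttr and Gh, 4 rose there and 22 had no cortex effect past this threshold. Pmch, which had the largest negative difference, encodes melanin-concentrating hormone, a peptide of lateral hypothalamic neurons that promotes feeding. It read 0.10, 0.33 and 0.21 in the CMS amygdala, against 4.38, 4.40 and 4.41 in the control amygdala, and -0.14, -0.06 and -0.06 in the CMS cerebral cortex, against -0.06, 0.02 and -0.03 in the control cerebral cortex. Only the control amygdala was high. The amygdala effect was -4.18 and the cortex effect -0.07 (adjusted p = 0.355), a difference of -4.12 ± 0.07 (SE, adjusted p = 2.78e-08).

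Trhr, the receptor of thyrotropin-releasing hormone, was called at both of its probe sets, and where the difference was larger it had values of 0.16, 0.19 and 0.52 in the CMS amygdala and 3.71, 3.60 and 3.21 in the control amygdala. Its cortex values lay between -0.27 and -0.04 in all 6 arrays, and the difference was -3.25 ± 0.19 (SE, adjusted p = 1.16e-05). The control amygdala was again the only high group. Calcr, the calcitonin receptor, read 0.08, 0.21 and 0.95 in the CMS amygdala and 2.13, 2.83 and 2.83 in the control amygdala, with a difference of -2.10 ± 0.34 (SE, adjusted p = 0.00265). Lhx9, a transcription factor of developing thalamus, was called at 3 of 4 probe sets, with differences of -2.71, -2.41 and -2.01, and the cortex effects at these were -0.05 to -0.08.

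Genes listed as markers of the amygdala were among those that fell there. Of 33 amygdala probe sets, 5 (15.2%) were called lower and 0 higher, against 2.37% and 0.906% of all probe sets. The 5 read 3 of the 19 genes, Grp, Vgll3 and Gabra2. Grp, which encodes gastrin-releasing peptide and marks neurons of the lateral amygdala, read -3.31, -3.00 and -2.41 in the CMS amygdala, against -0.12, -0.17 and -0.02 in the control amygdala. The cortex values were 0.02, 0.25 and 0.08 with CMS and 0.61, 0.59 and 0.52 in controls. CMS arrays of the amygdala lay below all others, and the difference was -2.35 ± 0.26 (SE, adjusted p = 0.000338). In controls Grp did not mark the amygdala against the cerebral cortex, with amygdala minus cortex at -0.68 (limma adjusted p = 0.0251). Vgll3, a transcriptional cofactor, fell by 3.56 in the amygdala and by 0.82 in the cerebral cortex where the difference was largest, and all 3 probe sets were called. Gabra2 was called at 1 of its 5 probe sets, with a difference of -1.50 (limma adjusted p = 0.0221). That call was lost without amygdala control replicate 3 (adjusted p = 0.0514). As the mean of its probe sets, Gabra2 had a difference of -0.24 (limma adjusted p = 0.0671).

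Of 31 probe sets for 26 neuropeptide genes, 5 (16.1%) were called lower and 0 higher, namely Pmch, Grp, Tac2, Pnoc and Penk, and 11 were lower and 3 higher at an adjusted p alone. Penk rose in both areas, by 0.34 in the amygdala and by 1.55 in the cerebral cortex. Tac2, which encodes neurokinin B, had a difference of -1.65 and Pnoc, the nociceptin precursor, of -1.59. Of 57 probe sets for neuropeptide receptors, 5 (8.77%) were called lower and 0 higher, for Trhr, Calcr, Oprl1 and Npy2r, and 9 were lower and 4 higher at an adjusted p alone. At an adjusted p alone, 9.77% of all probe sets were lower and 16.1% higher. Oprl1, the nociceptin receptor, had an amygdala effect of -0.54 (adjusted p = 0.113) and rose by 0.90 in the cerebral cortex. Other differences of this size were Lix1 with -3.42, and Lpar1, a receptor of lysophosphatidic acid, with -3.20. Cacna2d1, a calcium channel subunit, had -3.22 ± 0.79 (SE, adjusted p = 0.0191) at 1 of its 5 probe sets, a call lost with a block by mouse number (adjusted p = 0.0689), and 2 of the 5 were called. Hypothalamus genes had 3 of 35 probe sets called lower, and thalamus and habenula genes 4 of 56. Hippocampal field genes had 6 of 24 and pituitary genes 2 of 12, and 0 were called higher in these lists. The calls read 3, 2, 5 and 1 genes in this order. Over all probe sets 2.37% were called lower and 0.906% higher. Gh, the pituitary growth hormone, fell in both areas, and at the probe set with the largest difference it had 0.02, -0.00 and 0.00 in the CMS amygdala, against 3.13, 3.15 and 3.58 in the control amygdala, with cortex values of -0.08, -0.19 and -0.19 with CMS and 2.11, 1.65 and 0.93 in controls. CMS arrays were lower without overlap in both areas, and the difference was -1.57 ± 0.35 (SE, adjusted p = 0.0137). Under quantile normalization 0 of the 12 pituitary probe sets were called, and Npy2r lost its call there too. The part of these hypothalamic, thalamic and pituitary markers in the other amygdala results was not tested.

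Genes of myelin and oligodendrocytes held calls in 1 direction. Of 52 probe sets for 24 genes, 13 (25.0%) were called lower and 0 higher, against 2.37% and 0.906% of all probe sets. The median difference was -0.45, with median effects of -0.28 in the amygdala and 0.08 in the cerebral cortex. At an adjusted p under 0.05, 31 probe sets fell and 1 rose in the amygdala, against 0 that fell and 17 that rose in the cerebral cortex. Over all probe sets 8.12% fell in the amygdala and 7.19% rose in the cerebral cortex at this level. The other 39 were not called. Of the 13, 8 moved in opposite directions with an adjusted p under 0.05 in each area.

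Ugt8a, which makes the galactolipids of myelin, read -1.22, -1.51 and -1.58 in the CMS amygdala, against -0.06, 0.15 and 0.07 in the control amygdala. In the cerebral cortex it read 0.07, 0.21 and 0.20 with CMS, against -1.09, -0.67 and -0.96 in controls. The CMS arrays lay below the controls in the amygdala and above them in the cerebral cortex, with no overlap, and the difference was -2.56 ± 0.17 (SE, adjusted p = 2.01e-05). Cnp and Mobp, which encode myelin proteins, had differences of -1.66 and -1.50 at the probe sets with the largest change. Pdgfra, the receptor that marks oligodendrocyte precursors, had -2.12 at 1 of its 3 probe sets, while the other probe sets read -0.15 and 0.63.

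Astrocyte genes had 7 of 46 probe sets called lower (15.2%) and 0 higher, against 2.37% and 0.906% of all probe sets. Their median difference was -0.20. Gja1, the gap junction protein connexin 43, read -1.55, -1.77 and -1.58 in the CMS amygdala, against 0.61, 0.66 and 0.62 in the control amygdala, and 0.15, 0.16 and 0.11 in the CMS cerebral cortex, against -0.32, -0.35 and -0.67 in the control cerebral cortex. CMS arrays lay below the control arrays in the amygdala and above them in the cerebral cortex. The difference was -2.85 ± 0.13 (SE, adjusted p = 2.90e-06), but the other 5 probe sets of Gja1 had differences of -0.53 to -0.13. Aqp4, the water channel of astrocyte end feet, was called at 2 of 3 probe sets, with cortex effects of 1.84 and 0.84 and amygdala effects of -0.21 and -0.58. Microglia genes had 0 of 29 probe sets called in either direction by limma at these thresholds, with 3 higher and 11 lower at an adjusted p alone and a median difference of -0.35.

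**Figure D3:**
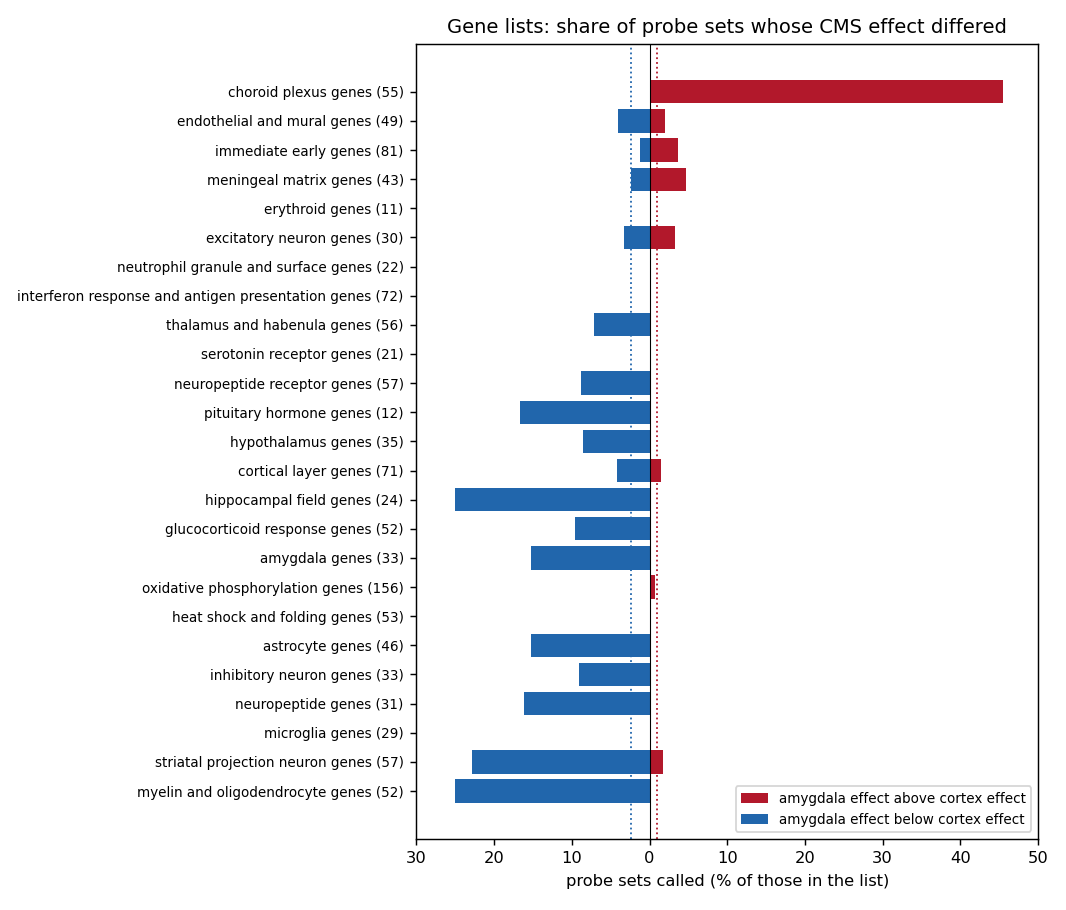
Share of the probe sets in each gene list (number in brackets) that were called higher (red, to the right) or lower (blue, to the left) in the amygdala effect minus the cortex effect, in percent, ordered by the median difference. Dotted lines mark 0.906% higher and 2.37% lower over all probe sets, and the choroid plexus bar of 45.5% is the longest.

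In 504 probe sets (1.12% of those tested) the areas moved in opposite directions, which needed a call for the difference and an adjusted p under 0.05 in each area with opposite signs. Of these, 389 (0.864%) fell in the amygdala and rose in the cerebral cortex and 115 (0.255%) rose in the amygdala and fell in the cerebral cortex. The first set read 321 genes and the second 58, while 21 and 55 of the probe sets had no single gene symbol. The 389 had a median effect of -0.71 in the amygdala and 0.68 in the cerebral cortex, and the arrays of CMS and control mice did not overlap in either area in 388. Both follow largely from the criterion, which used the same arrays, and are no added evidence. Changes past 2-fold in each area were found in 16 of the 389 and 2 of the 115. Among the called differences, 46 had an adjusted p under 0.05 in both areas with the same direction, of which 33 rose and 13 fell.

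Kif5c, a kinesin motor of neurons, led when the smaller of the effects was ranked. It read -0.41, -0.29 and -1.13 in the CMS amygdala, against 0.53, 0.88 and 0.83 in the control amygdala, and 1.43, 1.64 and 1.83 in the CMS cerebral cortex, against -0.15, 0.11 and -0.87 in the control cerebral cortex. CMS and control arrays did not overlap within either area. It fell by 1.36 in the amygdala (adjusted p = 0.00944) and rose by 1.94 in the cerebral cortex (adjusted p = 0.00196), a difference of -3.30 ± 0.40 (SE, adjusted p = 0.000517). A second Kif5c probe set had a difference of -2.09 and the other 2 had 0.16 and 0.18.

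Norad, a long noncoding RNA that binds Pumilio proteins, had tight replicates. It read -0.76, -0.82 and -0.86 in the CMS amygdala, against 0.58, 0.52 and 0.56 in the control amygdala, and 0.70, 0.75 and 0.76 in the CMS cerebral cortex, against -0.29, -0.31 and -0.53 in the control cerebral cortex. Again CMS arrays were below control arrays in the amygdala and above them in the cerebral cortex. Its difference was -2.48 ± 0.08 (SE, adjusted p = 1.02e-06), in 1 of 3 probe sets.

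Cd24a, a surface glycoprotein of developing neurons, was called at all 3 of its probe sets, with differences of -2.61, -2.34 and -1.64, and 2 of them met the opposite criterion. The cannabinoid receptor Cnr1, which restrains transmitter release, fell by 1.65 in the amygdala and rose by 1.21 in the cerebral cortex at 1 of 2 probe sets. Nr2f2, a nuclear receptor of interneuron development, fell by 1.38 in the amygdala and rose by 1.15 in the cerebral cortex, at 1 of 6 probe sets. Nfia, a factor of glial development, fell by 1.23 in the amygdala and rose by 1.19 in the cerebral cortex at 1 of its 2 called probe sets, out of 6. As the mean of its probe sets, the difference was -0.74 for Nr2f2 and -0.77 for Nfia. Gad2, which makes the inhibitory transmitter GABA, read 0.78, 0.62 and 0.54 in the CMS amygdala, against 1.66, 1.76 and 1.58 in the control amygdala, and -0.36, -0.50 and -0.51 in the CMS cerebral cortex, against -1.29, -1.55 and -1.56 in the control cerebral cortex. It fell in the amygdala and rose in the cerebral cortex without overlap of arrays, with a difference of -2.03 ± 0.13 (SE, adjusted p = 1.39e-05), and its other probe set had -0.21 (adjusted p = 0.143). The remaining genes of the 15 with the largest smaller effect were Dzip3, Atrx, Cep83os, Cdk14, Shoc2, Ptprs and Ltn1. At the probe set ranked, all were lower in the amygdala with CMS and higher in the cerebral cortex. Called were 1 of 6 probe sets for Dzip3 and for Ltn1, 1 of 4 for Ptprs and 2 of 7 for Atrx. They were 1 of 2 for Cep83os and for Shoc2, and 2 of 3 for Cdk14. Another Atrx probe set, not called, rose by 0.20 in the amygdala and fell by 0.20 in the cerebral cortex.

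**Figure D4:**
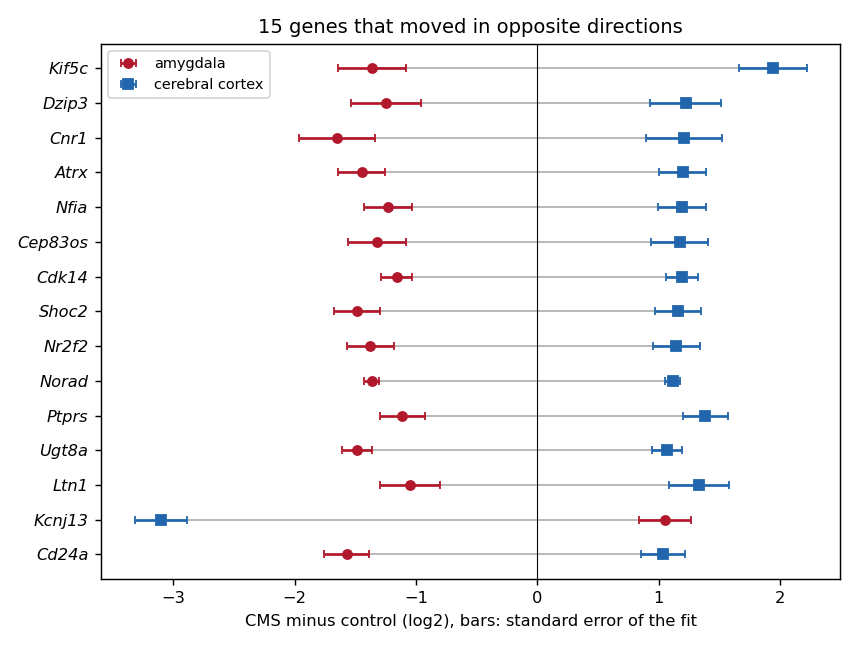
CMS minus control (horizontal axis, log2) in the amygdala (red circles) and in the cerebral cortex (blue squares), with the standard error of the limma fit as bars. The 15 opposite genes shown led when the smaller of the effects was ranked. At the probe set shown for each gene, the amygdala effect is negative and the cortex effect positive in 14 genes, and Kcnj13 is reversed.

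The opposite movement was often read by 1 of several probe sets of a gene. Of the 321 genes that fell in the amygdala and rose in the cerebral cortex, 307 had other probe sets, 815 in all, of which 52 were called in the same direction and 2 in the other, and their median difference was -0.13, against 0.0589 over all probe sets. In 42 of the 321 genes, 2 or more probe sets met the criterion. Of the 58 genes that rose in the amygdala and fell in the cerebral cortex, 51 had other probe sets, 142 in all, of which 3 were called in the same direction and 5 in the other, with a median difference of 0.0865, and in 2 of the 58 genes 2 or more probe sets met the criterion. By the mean of the probe sets of a gene, 68 genes met it, of which 20 have a single probe set. Kcnj13, Cd24a, Ugt8a, Cnr1 and Gad2 are among these 68. By the same mean, 54 genes (0.297%) were called higher and 158 (0.868%) lower.

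**Figure D5:**
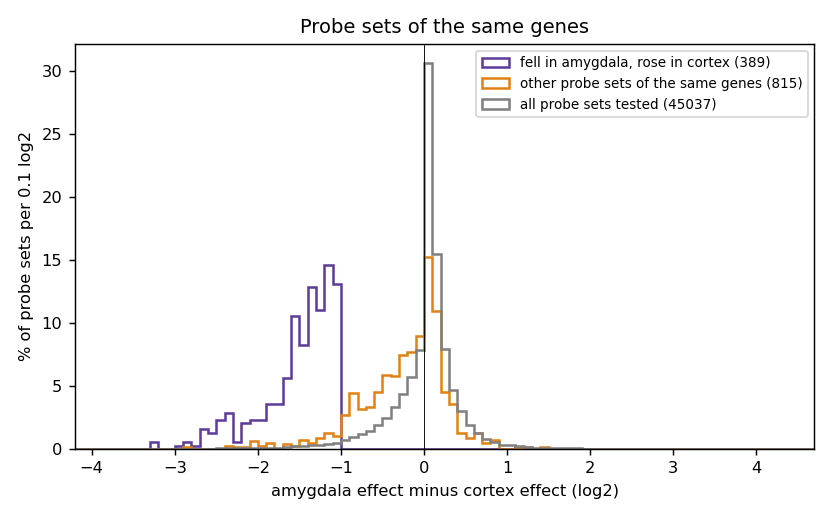
Distribution of the amygdala effect minus the cortex effect (horizontal axis, log2) in the 389 probe sets that fell in the amygdala and rose in the cerebral cortex (purple), in the 815 other probe sets of the same genes (orange) and in all 45037 (grey), in percent of each set per 0.1 log2. The orange curve has its median at -0.13, between the purple curve and the grey curve, whose median is 0.0589.

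Measures of RNA and hybridisation moved with these groups. The array's control probe set for the 3′ end of the transferrin receptor, not among those tested, read -0.78, -0.89 and -0.62 in the CMS amygdala, against 0.02, 0.01 and 0.05 in the control amygdala, and 0.57, 0.58 and 0.69 in the CMS cerebral cortex, against -0.06, -0.32 and -0.25 in the control cerebral cortex. The 5′ probe set had effects of -0.28 in the amygdala and 0.645 in the cerebral cortex, against -0.788 and 0.823 at the 3′ probe set. The tested gene Tfrc, looked at after these values were seen, had mean effects of -0.55 in the amygdala and 1.00 in the cerebral cortex. The 5′ minus 3′ value of beta-actin, which falls when RNA is degraded or labelling stops early, was -0.0722 ± 0.0173 in the CMS amygdala and 0.023 ± 0.031 in the control amygdala, against 0.407 ± 0.0425 in the CMS cerebral cortex and -0.194 ± 0.0988 in the control cerebral cortex (SD, n = 3 each). The effect of this value was -0.0951 in the amygdala and 0.601 in the cerebral cortex, and the same value of Gapdh had effects of -0.127 and 0.161. The transferrin receptor went the other way. Its 5′ effect was above its 3′ effect in the amygdala and below it in the cerebral cortex. Bacterial and phage RNAs added at hybridisation averaged 0.817 ± 0.0749 in the CMS amygdala and 0.0147 ± 0.00461 in the control amygdala, against 0.00595 ± 0.0388 in the CMS cerebral cortex and 0.152 ± 0.102 in the control cerebral cortex (SD, n = 3 each). The poly-A controls, which read other bacterial RNAs, averaged 0.044 ± 0.0183 in the CMS cerebral cortex and 0.534 ± 0.207 in the control cerebral cortex. In the amygdala they averaged 0.551 ± 0.0271 with CMS and 0.417 ± 0.0341 in controls (SD, n = 3 each). The part of these measures in the opposite movement was not tested.

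The arrays of hippocampus and prefrontal cortex entered neither the fit nor the criterion. In the 389 that fell in the amygdala and rose in the cerebral cortex, the median CMS effect was 0.11 for hippocampal arrays and -0.11 for prefrontal arrays, against -0.0465 and 0.02 over all probe sets. At an adjusted p under 0.05 in a fit of all 24 arrays, 112 rose and 22 fell in the hippocampus, against 10 that rose and 66 that fell in the prefrontal area. Over all probe sets 6.2% rose and 27.9% fell in the hippocampus, against 4.07% that rose and 3.21% that fell in the prefrontal area. Of the 115 that rose in the amygdala and fell in the cerebral cortex, 44 rose and 16 fell in the hippocampus, against 11 that rose and 4 that fell in the prefrontal area, with median effects of 0.0982 for hippocampal and 0.0418 for prefrontal arrays. With a 2-fold change, 1 of the 115 rose in the hippocampus and 1 fell in the prefrontal area. Among the 389, 1 fell in the hippocampus and 0 changed in the prefrontal area. Counts for the other pairs of areas, which share arrays with one another, were 898 and 203 opposite for amygdala and hippocampus, 568 and 56 for amygdala and prefrontal cortex, 656 and 108 for hippocampus and prefrontal cortex, 520 and 88 for hippocampus and cerebral cortex, and 689 and 98 for prefrontal cortex and cerebral cortex, against 1474 and 504 here.

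Immediate early genes fell more often than they rose in each area. Of 81 probe sets for 41 genes, 21 fell and 10 rose at an adjusted p under 0.05 in the amygdala, against 37 that fell and 2 that rose in the cerebral cortex. Over all probe sets 8.12% fell and 10.3% rose in the amygdala, against 4.95% that fell and 7.19% that rose in the cerebral cortex. The median effect was -0.07 in the amygdala and -0.26 in the cerebral cortex. For the difference, 3 probe sets were called higher (3.70%) and 1 lower, and 32 were higher and 5 lower at an adjusted p alone, where 16.1% and 9.77% of all probe sets were. Under quantile normalization 10 were called higher.

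Egr2, a zinc finger factor induced by activity, read -0.18, -0.05 and 0.11 in the CMS amygdala, against 0.05, 0.09 and -0.05 in the control amygdala, and these groups overlapped. Cortex arrays read 0.79, 0.49 and 0.72 with CMS, against 1.96, 1.85 and 1.95 in controls, without overlap. The difference was 1.18 ± 0.13 (SE, adjusted p = 0.000302). The other Egr2 probe set fell in both areas, by 0.28 in the amygdala (adjusted p = 0.0162) and by 1.01 in the cerebral cortex (adjusted p = 1.85e-05), and its difference of 0.73 (adjusted p = 0.000587) was not called. Nptx2, a secreted pentraxin that clusters glutamate receptors, moved in opposite directions, with 0.17, 0.32 and 0.17 in the CMS amygdala and -0.39, -0.46 and -0.46 in the control amygdala, and -0.39, -0.17 and -0.33 in the CMS cerebral cortex and 0.68, 0.59 and 0.45 in the control cerebral cortex. It rose by 0.66 in the amygdala and fell by 0.86 in the cerebral cortex, with no overlap in either area. The other of its 2 probe sets had effects of -0.29 in the amygdala (adjusted p = 0.381) and -0.59 in the cerebral cortex (adjusted p = 0.129), and a difference of 0.30 (adjusted p = 0.469). Ccn1, a matrix protein, had a difference of 1.42 ± 0.44 (SE, adjusted p = 0.0451) at 1 of its 4 probe sets, a call lost when any 1 of 11 of the 12 arrays was left out. Btg2, an antiproliferative factor, was the member called lower. It fell by 1.90 in the amygdala at 1 of 2 probe sets, and its other probe set had a difference of 0.39 (adjusted p = 0.135).

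The promoters of 3 of these called genes are shown because many immediate early genes are induced through the factor CREB, which binds the sequence TGACG on either strand within its longer site TGACGTCA. TGACG or its reverse complement CGTCA, in capitals below, was found in the promoter windows of 24 of the 32 list genes with a window in RefSeq (75.0%), against 23.0% of all 27025 genes with a window. TGACGTCA was found in 4 of the 32 (12.5%), against 2.03% of all genes. Each window holds 300 bases around the start of transcription in build GRCm38.p6, written 5′ to 3′ on the gene's strand. Egr2 is at chr10:67537619-67537918 on the plus strand, with 1 of its 5 windows shown, the first that holds a match. Ccn1 is at chr3:145649936-145650235 and Btg2 at chr1:134079106-134079405, both on the minus strand.
Egr2: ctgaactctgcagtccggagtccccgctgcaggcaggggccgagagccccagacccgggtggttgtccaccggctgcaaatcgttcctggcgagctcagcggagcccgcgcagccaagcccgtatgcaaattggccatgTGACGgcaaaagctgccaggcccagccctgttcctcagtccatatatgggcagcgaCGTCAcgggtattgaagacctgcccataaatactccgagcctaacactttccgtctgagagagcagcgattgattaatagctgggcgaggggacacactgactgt
Ccn1: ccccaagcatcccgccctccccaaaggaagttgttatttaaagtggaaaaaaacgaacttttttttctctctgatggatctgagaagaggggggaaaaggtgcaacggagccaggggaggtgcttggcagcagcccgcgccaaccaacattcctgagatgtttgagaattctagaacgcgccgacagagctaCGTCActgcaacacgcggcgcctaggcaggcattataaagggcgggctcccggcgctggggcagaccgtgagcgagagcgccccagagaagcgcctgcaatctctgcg
Btg2: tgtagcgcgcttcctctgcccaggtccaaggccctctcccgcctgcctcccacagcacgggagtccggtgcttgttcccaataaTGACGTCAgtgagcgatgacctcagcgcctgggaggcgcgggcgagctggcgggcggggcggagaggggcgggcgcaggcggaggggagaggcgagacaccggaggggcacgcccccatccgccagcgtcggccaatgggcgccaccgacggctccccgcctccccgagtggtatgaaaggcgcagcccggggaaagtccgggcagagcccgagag
A match describes the letters of this window and not a site in use.

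The glucocorticoid receptor Nr3c1, at the probe set with the largest difference, read -0.09, -0.09 and -0.04 in the CMS amygdala, against -0.05, 0.67 and 0.57 in the control amygdala, and these groups overlapped (effect -0.47, adjusted p = 0.133). In the cerebral cortex it read 1.70, 1.92 and 2.31 with CMS, against -0.05, 0.07 and 0.20 in controls, a rise of 1.90 without overlap. The difference was -2.37 ± 0.28 (SE, adjusted p = 0.000454). A second probe set had -1.45 and moved in opposite directions, and the other 4 of 6 had -0.32 to 0.25. Tsc22d3, which the receptor induces in many tissues, fell by 1.11 in the amygdala where the difference was largest and had a cortex effect of less than 0.01 in size. The difference at this probe set was -1.11 ± 0.05 (SE, adjusted p = 2.23e-06), a call lost under quantile normalization. Of its 4 probe sets 2 were called, and the mean of the 4 had a difference of -0.48. In all, 5 of 52 probe sets for glucocorticoid response genes were called lower and 0 higher, and 2 under quantile normalization. Over all probe sets 2.37% were called lower and 0.906% higher.

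Several lists had few calls. Interferon response and antigen presentation (0 of 72 probe sets), heat shock (0 of 53), serotonin receptors (0 of 21) and neutrophil genes (0 of 22) had none. Over all probe sets 3.27% were called, a share that gives few calls in lists this short. The limma adjusted p alone gave 4, 5, 1 and 3 higher and 3, 12, 0 and 1 lower, against 16.1% and 9.77% of all probe sets. Erythroid genes had 0 of 11 called, with 4 higher and 0 lower by the adjusted p alone. The largest differences in the lists without a call, all under 2-fold, were those of Ifih1 (0.93, adjusted p = 0.063) and Gbp3 (0.75, adjusted p = 0.0362) for interferon response, Hsp90aa1 (-0.84, adjusted p = 8.35e-05) and Hsp90b1 (-0.75, adjusted p = 7.48e-05) for heat shock, and Htr1a (-0.87, adjusted p = 0.0602) and Htr3a (-0.83, adjusted p = 0.144) for serotonin receptors. Among microglia genes they were Itgam (-0.85, adjusted p = 0.0313) and C1qc (-0.79, adjusted p = 0.0195), and among erythroid genes Alas2 (-0.67, adjusted p = 0.0752) and Epb42 (0.45, adjusted p = 0.0298). Hsp90aa1, a cytosolic chaperone, fell by 0.41 in the amygdala and rose by 0.44 in the cerebral cortex at the probe set with the largest difference. Its list mostly fell in both areas. At an adjusted p alone, 20 of the 53 heat shock probe sets fell and 2 rose in the amygdala. In the cerebral cortex 12 fell and 3 rose. Over all probe sets 8.12% fell and 10.3% rose in the amygdala, against 4.95% and 7.19% in the cerebral cortex. The neutrophil proteins S100a8 and S100a9 rose in both areas, by 2.97 and 2.81 in the amygdala and by 3.60 and 3.80 in the cerebral cortex, with differences of -0.62 (adjusted p = 0.358) and -0.99 (adjusted p = 0.0216). Oxidative phosphorylation genes had 1 of 156 called, Atp5a1, at 1 of 3 probe sets, and by the adjusted p alone 15 were higher (9.62%) and 35 lower (22.4%), against 16.1% and 9.77% of all probe sets. At this level 27 of the 156 rose and 11 fell in the amygdala, against 38 that rose and 1 that fell in the cerebral cortex. Endothelial and mural genes had 1 of 49 probe sets called higher (2.04%) and 2 lower (4.08%), against 0.906% and 2.37% of all probe sets. By the adjusted p alone 15 were higher (30.6%) and 5 lower (10.2%). Vwf, the von Willebrand factor, rose by 2.62 in the amygdala and by 1.16 in the cerebral cortex, and Rgs5, a marker of pericytes, fell by 1.42 in the amygdala and rose by 0.97 in the cerebral cortex at 1 of its 2 called probe sets. Meningeal matrix genes had 2 of 43 called higher, both of Fmod, and 1 lower, Dcn. Excitatory neuron genes had 1 of 30 called in each direction, both of Camk2a, with differences of 1.14 and -1.04. Inhibitory neuron genes had 3 of 33 called lower, for Gad2, Adarb2 and Nos1, and cortical layer genes had 1 of 71 called higher, Cux2, and 3 lower, for Ngb, Tle4 and Cux1. Of 89 probe sets for genes that the study itself named, 21 were called higher and 23 lower, which is no independent evidence because that list was chosen on these arrays.

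The largest rises in the amygdala among called differences were mostly in probe sets with no single gene symbol. Of 35 called probe sets that rose more than 4-fold there, 9 read a single gene, 8 genes in all. Of all 45037 probe sets tested, 34945 had a single gene symbol. Orly, a noncoding locus of the Y chromosome present in several copies, whose signal cannot be assigned to 1 copy, read 4.85, 3.23 and 4.51 in the CMS amygdala, against -0.49, -0.58 and -0.36 in the control amygdala. In the cerebral cortex it read 0.82, -0.04 and 2.18 with CMS, against -0.11, -0.50 and -0.00 in controls, so the spread of the CMS cortex arrays was as wide as their effect (1.19, adjusted p = 0.18). The difference was 3.48 ± 0.78 (SE, adjusted p = 0.0133), at 1 of its 4 probe sets, of which 2 were called.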

How the data were processed

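RNA from mouse brain areas was hybridised to 24 Affymetrix whole-genome mouse arrays, and the 12 of the amygdala and cerebral cortex were analysed, 3 per group by their labels. The authors processed the scans in GeneSpring GX with GCRMA and a baseline transformation and deposited log2 values, 1 table of 45101 probe sets, whose median over the 24 arrays is 0 for each probe set. Absolute levels are therefore not kept, and precision is limited by having 3 arrays a group. The 64 AFFX control probe sets were left out of the test. Of 45037 tested, 34945 have 1 gene symbol in the platform annotation, 932 several and 9160 none, and only the first were named.

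A limma 3.58.1 model (R 4.3.3) with 4 group means gave the CMS effect in each area and their difference, two-sided, with moderated variances (8 residual and 1.118 prior degrees of freedom) and Benjamini-Hochberg adjustment over all probe sets. The script was first tested on simulated data with known changes. Alternatives were all 24 arrays, each area alone, quantile normalization, median centring, a filter on low variance, trended and robust variances, array weights, unmoderated variances, the replicate number as a block over all arrays or within treatment as a mouse, calls by adjusted p alone, means over the probe sets of each gene, and leaving out each array.

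Genes were named as the 10 largest called differences in each direction among probe sets of 1 gene whose CMS and control arrays did not overlap in the area of the larger effect, the 15 opposite genes with the largest smaller effect, and, in a list, at most 5 members with a call. Where a list had none, the 2 largest differences were named. Foxp1 and Tfrc were named after their values were seen. The comparison, the lists and this rule were chosen with earlier results of these data known. Sequences came from RefSeq. Tables and figures were made with Python 3.11.15, pandas 2.3.3 and matplotlib 3.10.9.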

Additional observations from a re-analysis of the deposited data

Results flagged for a closer look

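The CMS effect differed between the areas, by the test of the difference itself, in 1474 probe sets, and 504 moved in opposite directions. The 15 opposite genes that led when the smaller of the effects was ranked are given here, each at 1 probe set. The amygdala effect minus the cortex effect was 4.15 for Kcnj13 and negative for the rest. It was -3.30 for Kif5c, -2.86 for Cnr1, -2.64 for Atrx and -2.64 for Shoc2. It was -2.61 for Cd24a, -2.56 for Ugt8a, -2.52 for Nr2f2, -2.49 for Cep83os and -2.49 for Ptprs. The values were -2.48 for Norad, -2.47 for Dzip3, -2.42 for Nfia, -2.38 for Ltn1 and -2.35 for Cdk14. Control probe sets outside the test also moved. The hybridisation controls had a CMS minus control value of 0.802 in the amygdala, and the beta-actin 5′ minus 3′ value had one of 0.601 in the cerebral cortex. The part of either in the differences was not tested.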

How the results depend on the processing

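The count of 1474 different probe sets stayed within 1.5 times of itself under the alternatives that kept probe sets and the fold threshold. Without a fold threshold it was 11669 (7271 higher, 4398 lower), with 8283 changed in the amygdala, 5468 in the cerebral cortex and 1475 in opposite directions. Rises then made up 55.8% of amygdala changes and 59.2% of cortex changes. With genes in place of probe sets the counts were 212 (54 higher, 158 lower), 120 in the amygdala (32 rose, 88 fell), 71 in the cerebral cortex (39 rose, 32 fell) and 68 opposite. Leaving out 1 array at a time gave 1296 to 1494 differences, 581 to 654 changes in the amygdala, 548 to 622 in the cerebral cortex and 415 to 519 opposite movements. Array weights moved the share of rises among cortex changes to 67.8%, against 78.8%. The labels do not say whether same-numbered arrays of the areas come from the same mouse, and the deviations of such arrays from their group means had correlations of -0.0673 to 0.0146. A replicate block gave 1364 differences and 466 opposite movements, and a block by mouse number gave 1228 differences, under which Cacna2d1 lost its call (-3.22, adjusted p = 0.0689).

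Of 95 named probe sets, 83 were called, and 65 of these were called under every alternative that kept probe sets and the fold threshold. The call was lost under at least 1 in the other 18, and 0 reversed. Nos1, Penk, Tle4, Tsc22d3 and Zbtb16 lost theirs under quantile normalization only. Agt, C1ql2, Ccn1, Exoc6b and Gjb1 were lost when any 1 of 8 to 11 single arrays was left out. Single arrays also decided Adarb2 (-0.996 without amygdala CMS replicate 1), Fmod (0.99 without cerebral cortex control replicate 1) and Gabra2 (-1.47, adjusted p = 0.0514 without amygdala control replicate 3). Cux1 was -0.87 and Cabp7 -0.92 without cerebral cortex control replicate 3, and Cux1 was -0.96 without amygdala CMS replicate 2 and Cabp7 -0.94 without amygdala CMS replicate 3. Npy2r was -0.98 to -0.93 without 1 of 5 arrays. As the mean of its probe sets Camk2a reversed to -0.075885 (adjusted p = 0.467), 47 were still called and 35 were not. The cause was not tested. Immediate early genes called higher ranged from 2 to 10, and choroid plexus genes from 23 to 28. Precision was limited by 3 arrays per group. The fold threshold left small changes out of the calls, and absolute levels were out of reach with centred values.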
